A study of Mus musculus with 12 samples.

Results

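H3K27me3 was mapped by ChIP-seq in mouse melanoma cells, and the regions described here are its longest stretches in cells with mutant KMT2D. They are the peaks of at least 10000 bp on the 19 autosomes in the mutant H3K27me3 list, 638 of 14630 autosomal peaks (4.36%, exact 95% interval 4.04 to 4.70). The list of cells with intact KMT2D (WT) held 337 autosomal peaks of that length among 13204. Members were chosen by their length in the mutant list, so their mutant length and the fact that they are longer than WT peaks at the same place are no findings. They are set beside the mirror choice, WT peaks of at least 10000 bp, and beside the class of mutant peaks just below them, of at least 5000 but under 10000 bp.

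The tumour cells came from ears of iBIP mice on a mixed FVB and B6 background. Among the alleles every mouse carried were Tyr-CreERT2, a tamoxifen-activated Cre driven by the promoter of a melanocyte pigment gene, together with Rosa26-rtta, a TetO transgene of oncogenic BRAF, and conditional INK/ARF alleles. Mutant cells were from iBIP;KMT2DL/L mice, whose KMT2D copies are both conditional, and WT cells from iBIP;KMT2D+/+ mice. Both kinds of mice were given doxycycline and had 1 uM 4-OHT (4-hydroxytamoxifen) put on the ears. The labels do not say how many tumours or mice each culture came from. Peak lists without gene names allow no check of KMT2D or of melanocyte markers; the H3K4me1 list held 5358 autosomal peaks in the mutant and 15974 in WT. Each genotype and mark had 1 library, so no value below has a replicate check and no test between genotypes was made. Intervals of shares are exact (Clopper-Pearson), cover counting error only, and treat neighbouring regions as independent. Read depth per library is unknown because peak lists hold no counts. An absent peak means that none passed the authors' threshold.

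H3K27me3 is placed on nucleosomes by Polycomb repressive complex 2 through its EZH2 or EZH1 subunit, and the mark is bound again by the complex through EED, which helps it spread along the chromatin. Most silenced CpG island promoters carry it over a short stretch, while clusters of developmental genes such as the Hox genes are known for unbroken blanketing. KMT2D belongs to the COMPASS family and monomethylates H3K4 at enhancers, usually together with the H3K27 demethylase UTX (KDM6A). H3K4me3 at promoters can coexist with H3K27me3, a state called bivalent, whereas H3K27ac sits on the same lysine as H3K27me3 and cannot be on the same histone tail. The files carry no gene names, and no annotation of their build, mm9, was at hand, so regions are located by mm9 coordinates, counted from 1, and no gene or DNA sequence is printed.

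The 638 domains summed to 11.3 Mb, which was 30.1% of all autosomal mutant H3K27me3. The long WT peaks summed to 5.84 Mb, or 21.1% of the WT total. Domain lengths had a median of 14375 bp, quartiles of 11577 and 20481 bp, and a maximum of 169199 bp. At 20000 bp or more there were 166 mutant and 79 WT peaks, and at 100000 bp or more 4 mutant and 1 WT peak. The authors' fold enrichment of the domains over background was between 3.75 and 7.43 with a median of 5.22. Within the mutant list, the median fold was 4.57 between 5000 and 10000 bp, 4.95 between 10000 and 15000 bp, 5.51 between 15000 and 20000 bp and 5.81 between 20000 and 50000 bp, so longer classes were also more enriched. Chromosome 2 held 83 domains, chromosome 11 held 70, chromosome 4 held 55 and chromosome 5 held 53. The same chromosomes held 1458, 1484, 1271 and 1042 mutant H3K27me3 peaks of any length, and 39, 33, 20 and 30 long WT peaks. Another long domain lay within 100000 bp of 37.5% (239 of 638, 33.7 to 41.3) of the domains.

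The length limit cut through a continuous range. The shortest members were 2 domains of 10026 bp. WT H3K27me3 covered 81.8% of the one at chromosome 2, 180504992 to 180515017, and 49.0% of that at chromosome 12, 113366388 to 113376413. The longest mutant peaks left out had 9977 and 9974 bp, on chromosome 11 from 96732809 to 96742785 and from 63730359 to 63740332, with WT cover of 96.1% and 97.0%. The next member, of 10034 bp on chromosome 2 (164953155 to 164963188), was covered to 70.7%, and the next peak left out, of 9967 bp on chromosome 2 (167009864 to 167019830), to 100%.

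Nearly every long mutant domain was already marked in WT cells, but seldom in full. A WT H3K27me3 peak overlapped 637 of the 638 domains, a share of 99.8%, where 50% of all autosomal mutant H3K27me3 peaks, which are mostly shorter, overlapped one. WT H3K27me3 covered 79.7% of the summed domain length, with a median per domain of 80.8% and quartiles of 68.8% and 89.7%. WT cover was at least 80% in 51.6% (329 of 638, 47.6 to 55.5) of the domains, against 17% of all autosomal mutant H3K27me3 peaks. It was under 50% in 49 domains and complete in 12. Since the domains were picked for being long in the mutant, part of a shortfall in WT comes with the choice.

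The mirror choice had no such shortfall. Mutant H3K27me3 covered 98.3% of the summed length of the 337 long WT peaks, with a median of 100% and a lowest value of 71.0%. It covered 212 of the long WT peaks in full and at least 80% of the length of 334 of them. Only 12 long WT peaks touched no long mutant domain. Another choice, which used the peaks of both genotypes, gave the same direction, but it held mostly the same regions. Mutant and WT H3K27me3 peaks that overlapped were joined into loci, and the 691 loci spanning at least 10000 bp had mutant peaks over 97.9% and WT peaks over 79.9% of their 12.3 Mb. The mutant covered more of the locus in 628 of the 691 (90.9%, 88.5 to 92.9) and WT in 63. The mutant had fewer peaks than WT in 418 loci (60.5%, 56.7 to 64.2), more in 32 and as many in 241. Across the whole autosomes the mutant list was longer too, at 37.6 Mb against 27.6 Mb in WT, a ratio of 1.36. Whether a more sensitive mutant library has a part in these differences was not tested.

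**Figure D1:**
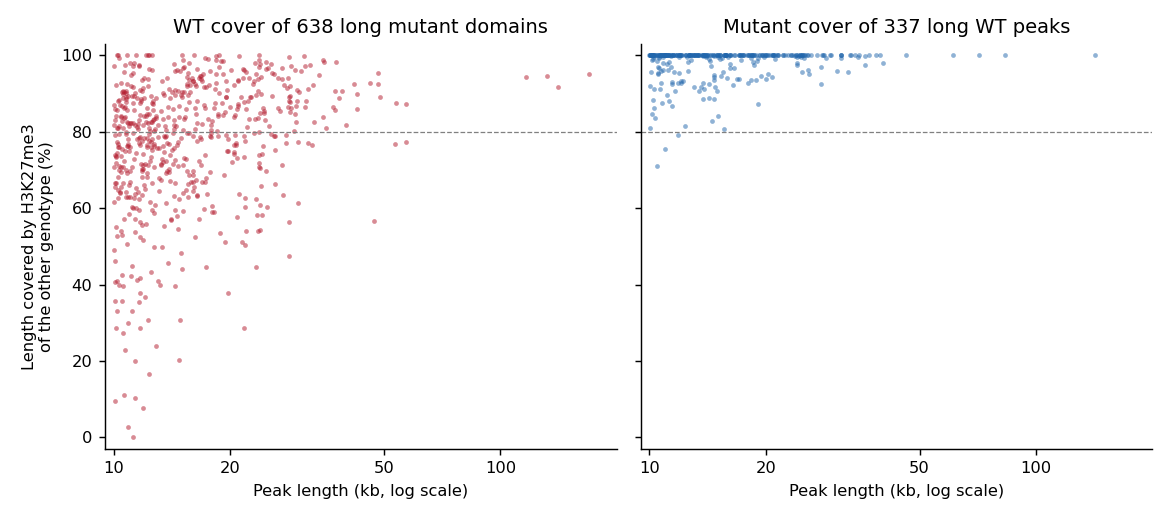
Share of each long H3K27me3 peak covered by H3K27me3 peaks of the other genotype (vertical axis, %), against peak length (horizontal axis, kb, log scale). Left, 638 long mutant domains against the WT list, with 329 at or above the dashed line at 80%; right, 337 long WT peaks against the mutant list, with 334 at or above it.

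The domains that WT covered least were short. On chromosome 4 from 140459673 to 140470907, no WT H3K27me3 peak touched the domain of 11235 bp. On chromosome 15 from 78466437 to 78477314, WT had 1 peak of 291 bp inside 10878 bp of mutant mark, a cover of 2.68%. WT covered 7.61% of the 11936 bp on chromosome 19 from 41731344 to 41743279. It covered 9.41% of 10070 bp on chromosome 11 (119447955 to 119458024) and 10.2% of 11389 bp on chromosome 5 (137049009 to 137060397). These 5 domains had mutant folds of 4.30, 3.88, 4.46, 4.34 and 5.17, of which only the last was near the domain median. None of the 5 had an H3K4me3, H3K27ac, H3K4me1 or H3K79me2 peak inside in either genotype.

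WT cover went with how enriched the domain was in the mutant list. The domains were split into 4 classes of near equal number by mutant fold. In the class with the lowest fold (3.75 to 4.70) the median WT cover was 66.4%, and 18.8% of them were covered over at least 80%. In the middle classes the median was 79.4% and 82.5%. In the class with the highest fold (5.83 to 7.43) it was 90.2%, with 81.1% of the domains covered over at least 80%. The same classes differed in length, with medians of 12195 bp at the lowest and 20986 bp at the highest fold.

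As deposited, most long mutant domains overlapped more than 1 WT peak, but this rested on short gaps and weak peaks. The share with 2 or more was 32.5% when peaks were merged across gaps of up to 3000 bp, and 17.4% when H3K27me3 peaks needed a −log10 q of at least 5, a threshold chosen after seeing the data. A single WT peak lay in 217 domains, 2 peaks in 216, 3 in 112, 4 in 57, and 5 or more in 35, with at most 10. Thus 65.8% (420 of 638, 62.0 to 69.5) of the domains overlapped 2 or more WT peaks, where 8.45% of all autosomal mutant H3K27me3 peaks did. Of the domains, 32.0% (204 of 638) overlapped 3 or more. Longer peaks have more room for pieces, and the share was 31.4% among mutant peaks between 5000 and 10000 bp, 61.0% between 10000 and 15000 bp and 74.7% between 20000 and 50000 bp. Of the long WT peaks, in turn, 11.6% (39 of 337, 8.36 to 15.5) overlapped 2 or more mutant peaks, and none more than 3.

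The pieces were unequal. In domains with 2 or more WT peaks, the largest piece held a median of 78.9% of the WT cover. The 780 other pieces had a median length of 1057 bp. Over all 1417 WT pieces in the domains, 14.0% (199) were under 500 bp and 43.9% (622) were at least 5000 bp. With pieces under 500 bp set aside, 55.0% of the domains still had 2 or more.

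**Figure D2:**
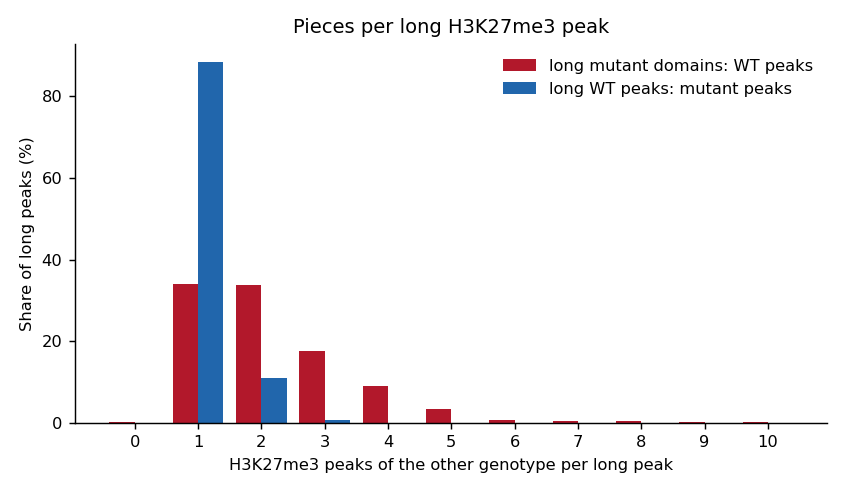
Number of H3K27me3 peaks of the other genotype per long peak (horizontal axis) and the share of long peaks with that number (vertical axis, %). Left bars (red), WT peaks in the 638 long mutant domains, of which 34.0% had 1; right bars (blue), mutant peaks in the 337 long WT peaks, of which 88.4% had 1.

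By the length and span of their WT peaks, any part past the domain ends included, the domains fell into 3 groups. In 310 domains (48.6%, 44.6 to 52.5) a single WT peak was itself at least 10000 bp long; these had a median length of 18725 bp, WT cover of 89.4% and mutant fold of 5.73. In 197 domains (30.9%, 27.3 to 34.6) no WT peak was that long, but the WT peaks together spanned at least 10000 bp, so that the length was reached once gaps between them were closed. Their median longest WT peak was 7005 bp, in a median span of 12530 bp. In the remaining 131 domains (20.5%, 17.5 to 23.9) the WT peaks spanned less than 10000 bp, with a median span of 8545 bp and 1 WT peak in the median domain. The median mutant fold of these last groups was 4.86 and 4.80, below that of the group with a long WT peak.

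Of the 2.30 Mb of domain length without WT mark, gaps between WT peaks and stretches at the domain edges took nearly equal parts. The gaps summed to 1.18 Mb (51.5%) and the edges to 1.10 Mb (48.0%), the rest being the domain with no WT peak. Left and right edges were alike, at 0.553 and 0.552 Mb. As a part of domain length, gaps made up 10.5% and edges 9.76%. In the long WT peaks, measured against the mutant list, gaps made up 0.776% and edges 0.905% of the length.

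The 780 gaps were short, with a median of 1192 bp, quartiles of 939 and 1722 bp and a longest of 8624 bp. No gap could be under 801 bp, since that was the smallest distance between neighbouring peaks in either H3K27me3 list. A gap was at most 1600 bp long in 71.0% (554) of cases and at least 3000 bp in 54. The mirror had 41 gaps in long WT peaks, with a median of 1001 bp. The share of gaps among the WT-uncovered length rested in part on small WT peaks: it was 39.6% when a WT peak had to overlap the domain by at least 500 bp. It was 11.5% when H3K27me3 peaks in both lists needed a −log10 q of at least 5.

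At the edges, the mutant reached further at 944 of 1274 domain ends with a WT peak (74.1%, 71.6 to 76.5), by a median of 835 bp, and WT reached further at the other 330, by a median of 399 bp. These distances are to the end of the domain itself; a separate mutant peak can lie beyond it. The mutant went past the outermost WT peak by at least 1000 bp at 412 ends, and WT past the domain by at least 1000 bp at 85. Both ends lay beyond WT in 351 domains, 1 end in 242 and neither in 44. In the mirror choice the long WT peaks went past the mutant at 118 of 674 ends (17.5%, 14.8 to 20.6).

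Edges and gaps changed place with length. Edges made up 22.6% of the length of mutant peaks between 5000 and 10000 bp and gaps 7.28%. Between 10000 and 15000 bp edges were 15.5% and gaps 11.7%, and between 20000 and 50000 bp edges were 6.64% and gaps 9.77%. In the 8 domains of 50000 bp or more edges were 1.70% and gaps 7.61% of the length. Gaps thus took 42.7% of the WT-uncovered length between 10000 and 15000 bp and 81.7% at 50000 bp or more. An edge is met at 2 ends of a peak whatever its length, so its share of the length is bound to shrink as peaks get longer.

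**Figure D3:**
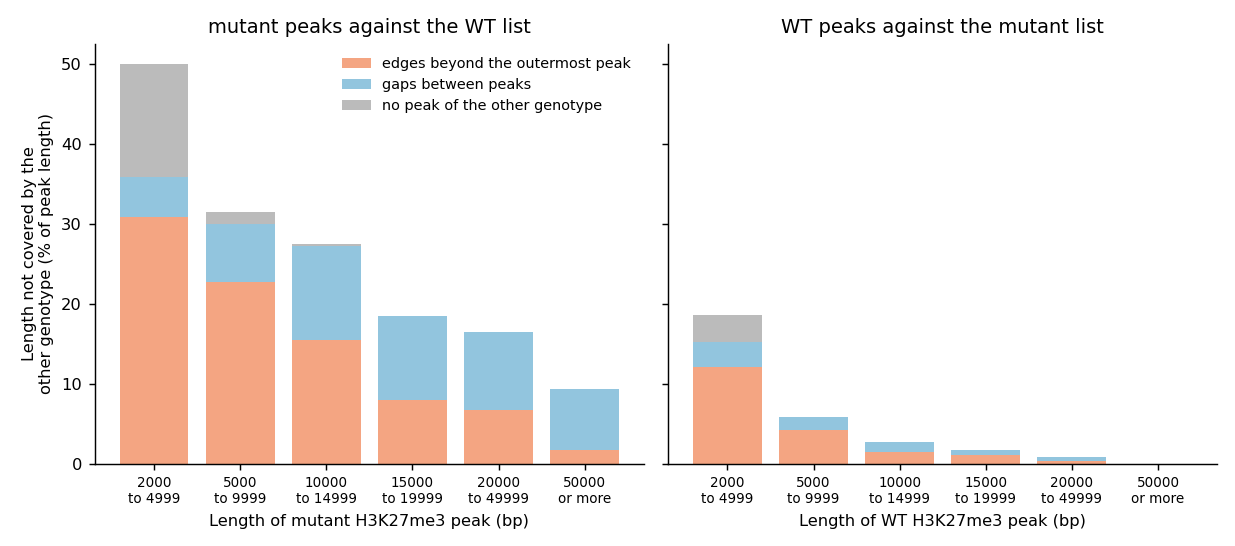
Length of H3K27me3 peaks not covered by the other genotype (vertical axis, % of peak length), by peak length class in bp (horizontal axis), split into edges beyond the outermost peak, gaps between peaks, and peaks with no counterpart. Left, mutant peaks against the WT list, where edges are the larger part below 15000 bp and gaps from 15000 bp; right, WT peaks against the mutant list, with under 6% uncovered from 5000 bp upward.

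The 8 longest domains were all cut by gaps in WT, and all but 2 had WT cover above 80%. The longest, on chromosome 15 from 102735596 to 102904794 (169199 bp), held 4 WT peaks, of which the largest had 142199 bp, the longest peak of the WT list. The 3 gaps of together 5261 bp and a right edge of 2823 bp were marked in the mutant alone. It had no H3K4me3 or H3K27ac in either genotype. The next domain on that chromosome, of 12755 bp, ran from 102909297 to 102922051, and WT marked 9731 bp of it in 1 peak. It was followed by a domain of 56857 bp, from 102924196 to 102981052. There WT had 8 peaks over 87.2% of the length, the largest of 13899 bp, and again no H3K4me3 or H3K27ac was called in either genotype.

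The domain on chromosome 6 from 52093631 to 52234687 (141057 bp) was covered to 91.7% by 9 WT peaks. The largest WT piece was 71414 bp and the gaps summed to 9473 bp. The domain on chromosome 11 from 96106562 to 96238793 (132232 bp) had 5 WT peaks over 94.7%, and that on chromosome 2 from 74480256 to 74597029 (116774 bp) 5 over 94.5%. These 3 blocks were thus almost fully marked in both genotypes, with WT interrupted by gaps of at most 2075 bp. Another on chromosome 11, from 98147009 to 98203925 (56917 bp) and 1908215 bp further on, had 8 WT peaks over 77.3%. Its 12214 bp of gaps all lay to the left of the largest WT piece, of 31304 bp. On chromosome 19 from 44790208 to 44843920 (53713 bp), 3 WT peaks covered 87.5%. On chromosome 2 from 165018205 to 165071690 (53486 bp), 4 WT peaks covered 76.7%, with a longest gap of 8624 bp.

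Other marks took little of these long domains. In the chromosome 11 domain of 132232 bp, H3K4me3 covered 5652 bp in the mutant and 4737 bp in WT, and H3K27ac 2601 bp in the mutant and 2679 bp in WT. In the chromosome 2 domain of 116774 bp H3K4me3 covered 4516 bp in the mutant and 3296 bp in WT. The chromosome 11 domain of 56917 bp had 1887 bp of it in the mutant and 2003 bp in WT, and the chromosome 2 domain of 53486 bp had 1976 bp in the mutant and 1699 bp in WT. The chromosome 19 domain had 1345 bp in the mutant and none in WT. Neither genotype had H3K27ac in the last 4 of these 5 domains.

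The domain with the most WT peaks and the greatest gap length was on chromosome 7 from 86718194 to 86765246. Its 47053 bp were 1 peak in the mutant and 10 in WT, with WT cover of 56.7% and 18110 bp of gaps. The largest WT pieces had 11528, 6733 and 4609 bp, and the other 7 had between 223 and 802 bp. On chromosome 17 from 25612616 to 25641024, WT had 8 peaks over 47.4% of 28409 bp, with 11818 bp of gaps and a WT peak that reached 5461 bp past the left end. On chromosome 5 from 140130521 to 140152410, 6 WT peaks covered 50.4% of 21890 bp. Both ends there lay inside WT peaks, by 1153 and 8978 bp. Past the right end, the mutant had a separate peak of 8150 bp from 140155089 to 140163238, which overlapped the same WT peak (140150406 to 140161388). No other mark was called in these 3 domains in either genotype.

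The longest single edge was on chromosome 19 from 41731344 to 41743279, where the only WT peak of 908 bp sat at the left end and the mutant went on for 11014 bp. A mutant edge of 9584 bp was found on chromosome 7 from 19680234 to 19693129, where 1 WT peak of 3086 bp began 226 bp from the left end. On chromosome 5 from 121096310 to 121110715 the right edge was 8689 bp. The left edge on chromosome 15 from 78466437 to 78477314 was 7247 bp. The right edge in the domain at 151644429 to 151655063 of chromosome 7 was 7157 bp. The last of these regions carried H3K79me2, a mark of transcribed gene bodies, over 4630 bp in the mutant and 7149 bp in WT. Its H3K4me3 covered 390 bp in the mutant and 1448 bp in WT, and its H3K27ac 729 bp in the mutant and 13 bp in WT. These are parts of peaks that crossed the right end in both genotypes. In full, the H3K27ac peak had 3165 bp in the mutant and 2231 bp in WT, and the H3K4me3 peak 2729 and 3711 bp.

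H3K4me3 was present in over 40% of the domains in both genotypes. It overlapped 267 domains in the mutant (41.8%, 38.0 to 45.8) and 291 in WT (45.6%, 41.7 to 49.6). Of all autosomal mutant H3K27me3 peaks, 15% overlapped mutant H3K4me3 and 16.1% WT H3K4me3; the domains are longer, and by length the mark was scarcer in them. It covered 6.37% of the domain length in the mutant and 5.62% in WT, against 11.1% and 10.5% of that of mutant H3K27me3 peaks between 5000 and 10000 bp. The long WT peaks had it in 43.3% of cases in the mutant and in 45.1% in WT.

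The domains with H3K4me3 were largely the same ones. How H3K4me3 split by genotype over all autosomal mutant H3K27me3 peaks was not computed. Both genotypes had it in 231 domains, the mutant alone in 36, WT alone in 60, and neither in 311 (48.7%, 44.8 to 52.7). Where both had it, the mutant H3K4me3 covered more of the domain in 170 and less in 61, with a median of 2425 bp in the mutant and 2003 bp in WT. The summed length ratio of mutant over WT was 1.13 inside the domains and 1.05 over all autosomes, and the median width of H3K4me3 peaks outside the domains was 2178 bp in the mutant and 1892 bp in WT. Inside the domains it was 1977 bp in the mutant and 1451 bp in WT. The H3K4me3 peaks in the domains were weaker than the rest of their own lists, with median scores of 269 against 762 in the mutant and 255 against 975 in WT, the score being the authors' own.

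H3K4me3 lay in the body of the domains. Of the peaks overlapping domains, 316 of 340 were wholly inside in the mutant and 360 of 383 in WT. In the first 500 bp inside the edge it covered 1.97% of bases in the mutant and 2.01% in WT, and around 4750 bp inside it covered 9.08% in the mutant and 8.76% in WT. By WT H3K27me3 state, mutant H3K4me3 covered 7.34% of the WT-covered parts, 3.70% of the gaps and 1.33% of the edges, and WT H3K4me3 6.41%, 3.67% and 1.34%. The stretches marked by H3K27me3 in the mutant alone thus held less H3K4me3 than the shared ones in both genotypes.

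H3K27ac was rare in the domains. It overlapped 31 domains in the mutant (4.86%, 3.32 to 6.83) and 42 in WT (6.58%, 4.79 to 8.79). These shares are close to those of all autosomal mutant H3K27me3 peaks, 4.71% for mutant and 5.49% for WT H3K27ac, and so say nothing particular of the domains, which are longer. By length, H3K27ac covered 0.692% of the domains in the mutant and 0.863% in WT, against 1.83% and 2.15% of mutant H3K27me3 peaks between 5000 and 10000 bp. The long WT peaks, chosen on WT, had H3K27ac in 11 of 337 cases in the mutant and in 10 in WT. There it covered 0.382% of the length in the mutant and 0.329% in WT. The lower mutant value in the domains was thus not seen in the mirror choice. Of the 22083 autosomal H3K27ac peaks of the mutant 42 touched a domain, and of the 24759 of WT 61 did.

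H3K27ac went with H3K4me3. Of the domains with mutant H3K27ac, 30 of 31 also had mutant H3K4me3, and of those with WT H3K27ac all 42 had WT H3K4me3. Both genotypes had H3K27ac in 27 domains, the mutant alone in 4 and WT alone in 15. This split, too, was not computed for all autosomal mutant H3K27me3 peaks. The WT-only group had a median WT H3K27me3 cover of 70.3%, and 3 of its 15 domains had mutant H3K79me2 and 9 WT H3K79me2. The group with H3K27ac in both genotypes had a similar median WT cover, of 73.2%. In that group 10 of 27 domains had mutant H3K79me2 and 13 WT H3K79me2. All 15 domains with H3K27ac in WT alone had mutant and WT H3K4me3. The 592 domains without H3K27ac in either genotype had a median WT cover of 81.1%, and 3 of them had mutant H3K79me2 and 9 WT H3K79me2.

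The other 2 marks were scarce and lower in the mutant. H3K4me1, the modification that KMT2D places, overlapped 10 domains in the mutant (1.57%, 0.754 to 2.86) and 64 in WT (10.0%, 7.81 to 12.6), against a background of 0.437% and 3.39% over all autosomal mutant H3K27me3 peaks. The domains are longer than most of those peaks. The mutant over WT ratio of H3K4me1 length was 0.127 inside the domains, 0.300 over all autosomes. H3K4me1 covered 0.115% of the domain length in the mutant and 0.912% in WT. In mutant H3K27me3 peaks between 5000 and 10000 bp it covered 0.0983% and 1.97%, and in long WT peaks 0.0753% and 0.782%. The lower mutant value was thus not particular to the domains. H3K79me2 overlapped 17 domains in the mutant (2.66%, 1.56 to 4.23) and 32 in WT (5.02%, 3.46 to 7.01), against a background of 2.51% and 3.69%. Its length ratio was 0.359 inside the domains and 0.825 over all autosomes. H3K79me2 covered 0.353% of the domain length in the mutant and 0.985% in WT. In mutant H3K27me3 peaks between 5000 and 10000 bp it covered 0.876% in the mutant and 1.83% in WT. In long WT peaks it covered 0.0781% in the mutant and 0.159% in WT. A lower mutant value of H3K79me2 was thus not particular to the domains either. The domains were chosen on a mark of the mutant, and the long WT peaks, chosen on WT, had H3K79me2 in 3 cases in the mutant and in 6 in WT. No peak of H3K4me3, H3K27ac, H3K4me1 or H3K79me2 was called in either genotype in 305 domains (47.8%, 43.9 to 51.8). That share was not computed for all autosomal mutant H3K27me3 peaks, so it does not set the domains apart.

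The gaps that the mutant had filled were mostly bare of other marks in WT. Of the 780 gaps, 63 (8.08%, 6.26 to 10.2) had a WT peak of H3K4me3, H3K27ac, H3K4me1 or H3K79me2, and 57 (7.31%, 5.58 to 9.36) a mutant one. Of the 944 edges, 32 (3.39%) had one in the mutant and 42 (4.45%) in WT. Of the WT-covered pieces, 312 of 1417 (22.0%) had one in the mutant and 351 (24.8%) in WT, these pieces being longer. WT H3K79me2 covered 1.75% of the gaps, 1.98% of the edges and 0.764% of the WT-covered parts, and mutant H3K79me2 0.434%, 0.949% and 0.270%. Mutant H3K27ac covered 1.68% of the gaps, 0.679% of the edges and 0.565% of the WT-covered parts, and WT H3K27ac 1.81%, 0.534% and 0.779%. By length H3K27ac was thus denser in the gaps than in the WT-covered parts in both genotypes. It lay in 16 gaps in the mutant and 21 in WT. Of the 54 gaps of at least 3000 bp, 2 had another mark in the mutant and 7 in WT.

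Around the domains, active marks were sparse close to the edge and denser further out. In the 2000 bp outside the edges H3K27ac covered 0.904% of bases in the mutant and 1.11% in WT, and from 5000 to 10000 bp outside 1.95% and 2.21%. H3K79me2 covered 0.279% in the mutant and 0.978% in WT in the nearer stretch, and 1.52% and 2.17% in the farther one. An H3K27ac peak lay within 10000 bp outside at 90 of 1276 domain sides in the mutant (7.05%, 5.71 to 8.60) and at 112 in WT (8.78%, 7.28 to 10.5). Most domains thus had no H3K27ac peak next to them in either genotype. The sides of other H3K27me3 peaks were not measured, so these shares do not set the domains apart. H3K27me3 itself covered 23.1% of the 10000 bp outside in the mutant and 14.9% in WT.

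**Figure D4:**
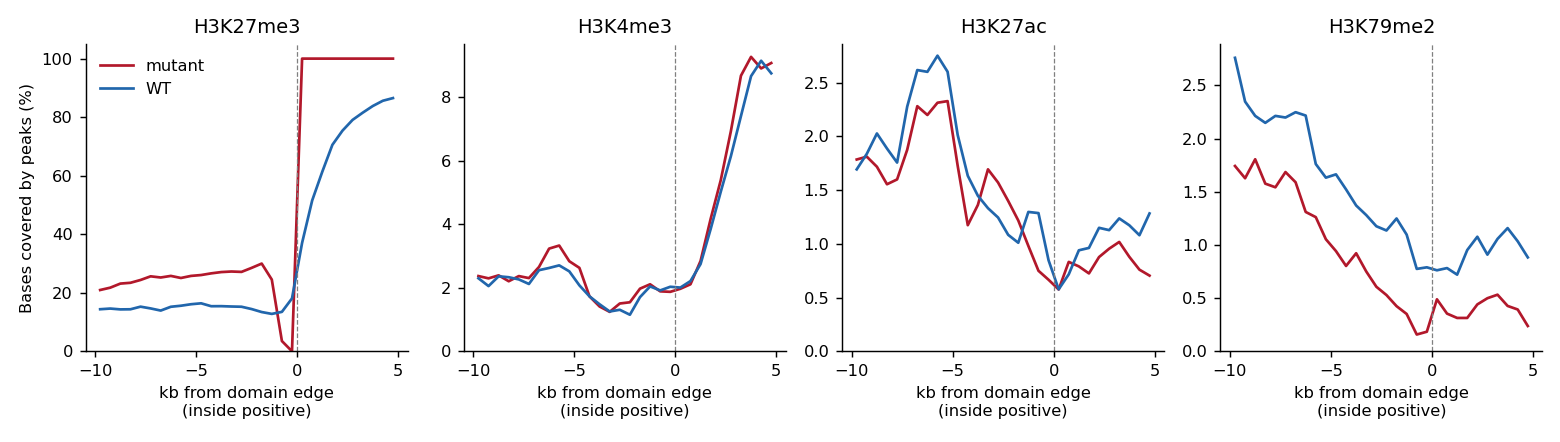
Share of bases covered by peaks (vertical axis, %) by distance from the edges of the 638 domains (horizontal axis, kb, both ends pooled, inside positive), in bins of 500 bp, for H3K27me3, H3K4me3, H3K27ac and H3K79me2, with mutant in red and WT in blue. The edges were set by the mutant H3K27me3 list, which gives its step at 0, and the dip of the mutant just outside follows from neighbouring peaks being at least 801 bp apart. WT H3K27me3 climbs from 37.0% in the first bin inside to 86.5% in the last, and H3K4me3 from 1.97% to 9.08% in the mutant and from 2.01% to 8.76% in WT.

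The greatest excess of mutant H3K4me3 was in the domain on chromosome 6 from 52093631 to 52234687, with 11589 bp in 7 peaks in the mutant and 3588 bp in 3 peaks in WT. Mutant H3K27ac covered 1555 bp there, from 52108209 to 52109763, and WT none. On chromosome 15 from 76345399 to 76356057 the mutant had 4771 bp of H3K4me3 and 1251 bp of H3K27ac, and WT neither. WT H3K27me3 covered 90.4% of that domain. The H3K27ac there was part of a mutant peak of 2035 bp that crossed the left end. A WT H3K27ac peak of 6164 bp ended outside the left end, at 76344197. On chromosome 3 from 99036689 to 99068830 H3K4me3 covered 5800 bp in the mutant and 1472 bp in WT. On chromosome 17 from 80109271 to 80121445 it covered 3878 bp in the mutant and none in WT. In these 4 domains WT H3K27me3 covered 84.7 to 97.4% of the length.

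The greatest deficit was on chromosome 3 from 34546600 to 34566056, where H3K4me3 covered 3608 bp in the mutant and 8785 bp in WT. This domain of 19457 bp also had the greatest H3K27ac deficit, with none in the mutant and 3430 bp in WT, and H3K79me2 over none of it in the mutant and 6057 bp in WT. WT H3K27me3 covered 51.1% of it in 4 peaks, and the longest gap was 6994 bp. The WT H3K4me3 peak from 34547278 to 34553468 overlapped the first 3 WT H3K27me3 peaks, and in the mutant H3K4me3 was called there from 34548701 to 34550779. Both WT H3K27ac peaks, from 34547549 to 34548894 and from 34562350 to 34564433, lay wholly inside WT H3K27me3 peaks.

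A similar set of values was found on chromosome 1 from 78184229 to 78216858, which WT H3K27me3 covered to 76.5% in 6 peaks. H3K4me3 covered 4314 bp in the mutant and 7997 bp in WT, H3K27ac none in the mutant and 2152 bp in WT, and H3K79me2 none in the mutant and 3945 bp in WT. On chromosome 4 from 99314412 to 99330790, H3K27ac covered none of the domain in the mutant and 2517 bp in WT, and H3K79me2 none in the mutant and 5776 bp in WT, while H3K4me3 covered 5819 bp in the mutant and 6502 bp in WT. On chromosome 16 from 17794673 to 17811331 H3K4me3 covered 1349 bp in the mutant and 5372 bp in WT, with no H3K27ac in either and WT H3K27me3 over 94.2%. On chromosome 4 from 140794164 to 140805168 the mutant had no H3K4me3 and WT had 3424 bp, while H3K27ac covered 2358 bp in the mutant and 2779 bp in WT.

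H3K27ac was in excess in the mutant on chromosome 16 from 30060057 to 30072011, with 6585 bp in 4 peaks against 4026 bp in 2 peaks in WT. H3K4me3 covered 6175 bp of that domain in the mutant and 6253 bp in WT. On chromosome 5 from 75540420 to 75553001 H3K27ac covered 2134 bp in the mutant and none in WT, and on chromosome 6 from 51121512 to 51158831 1872 bp in the mutant and none in WT. On chromosome 7 from 28114935 to 28125113 it covered 2665 bp in the mutant and 962 bp in WT. A deficit was found on chromosome 7 from 123173289 to 123184657, with 2221 bp in the mutant and 5291 bp in WT, where H3K4me3 covered 6486 bp in the mutant and 6208 bp in WT. These values show that long mutant H3K27me3 peaks included a few regions with calls of both marks at once, in both directions of difference.

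**Figure D5:**
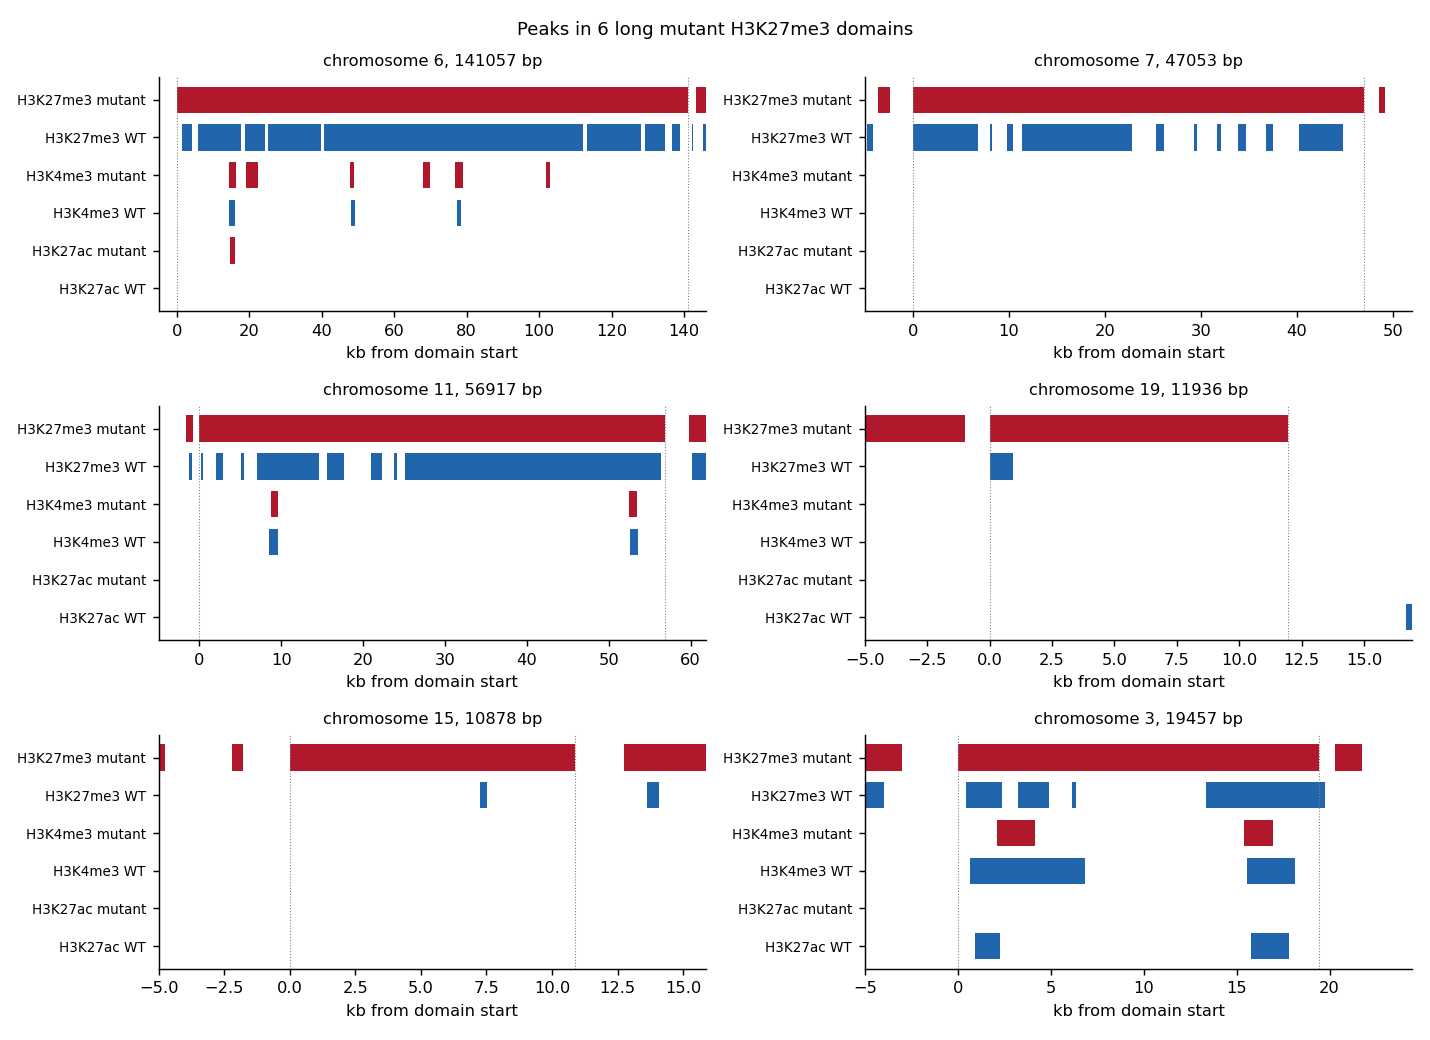
Deposited peaks of H3K27me3, H3K4me3 and H3K27ac in mutant (red) and WT (blue) in 6 named domains, by distance from the domain start (horizontal axis, kb); dotted lines mark the ends of the mutant domain. The domain of 141057 bp is cut into 9 WT peaks and that of 47053 bp into 10, the domains of 11936 and 10878 bp hold 1 short WT peak each, and that of 19457 bp has H3K27ac in WT alone.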

How the data were processed

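All values derive from 10 deposited peak lists, 1 library per list (5 marks in 2 genotypes); the 2 input libraries were not used here. Per the submitters' processing notes, the tools were Bowtie, MACS, MACS2 and deepTools and the build was mm9; those notes give neither versions nor what each tool did. H3K27me3 and H3K79me2 lists are MACS2 broad peaks with a deposited fold enrichment (ratio), −log10 p, −log10 q and score per peak. H3K4me3, H3K27ac and H3K4me1 lists carry a deposited MACS score per peak. These were used only within a list. Libraries had 10 PCR cycles, per the labels' protocols.

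Domains, WT cover, edges and gaps were computed by base overlap, with an overlap of at least 1 bp counting as a peak inside. An edge runs from a domain end to the outermost WT peak, and a gap lies between neighbouring WT peaks. Groups came from the sample titles. The list of alleles shared by both genotypes is not reported in full here. Intervals are exact 95% binomial ones. No test between genotypes was possible with 1 library each. The members, classes and alternatives were chosen with earlier results of these data known.

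Regions were named by a rule: the 8 longest domains; the 5 with the lowest WT cover, most WT peaks, longest single edge and greatest gap length; the 4 with the greatest excess and deficit of H3K4me3 and of H3K27ac; and peaks next to the length limit. Gene lists drawn up for an mm9 annotation were not run. The code split 600 simulated domains with 0 errors. Overlaps and intervals were computed with numpy 2.4.6 and scipy 1.17.1 under Python 3.11.15, and figures drawn with matplotlib 3.10.9. Alternatives were other length limits (5000 and 20000 bp), merging across 1000 or 3000 bp, stricter thresholds (−log10 q of at least 3 and MACS score of at least 100), chromosome X, an overlap of 500 bp and a mutant list limited to the WT covered length. A still stricter threshold (5 and 200) and leaving out the 8 longest domains were added after seeing the data.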

Additional observations from a re-analysis of the deposited data

How the results depend on the processing

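Over 10 settings, 50 of 79 values moved by less than 1.5 times (counts) or stayed within their exact interval (shares), and 29 did not. The gap share is a share of bases, and its interval was computed as if it were a share of the 638 domains. With a minimum length of 5000 bp there were 1993 domains, of which 40.2% had WT cover of at least 80%, 42.4% had 2 or more WT peaks, 37.0% had H3K4me3 in the mutant and 41.5% in WT, and gaps made up 35.7% of the WT-uncovered length. With 20000 bp the values were 166 domains, 67.5%, 75.9%, 46.4% in the mutant and 51.2% in WT, and 61.6%; these settings change the members by construction. Merging peaks across 1000 bp gave 45.6% with WT cover of at least 80% and 60.2% with 2 or more WT peaks. Merging across 3000 bp, which closes most gaps by construction, gave 1156 domains, 38.8%, 32.5%, H3K4me3 in 36.4% in the mutant and 40.1% in WT, and a gap share of 38.4%. An overlap of at least 500 bp left 55.0% with 2 or more WT peaks and a gap share of 39.6%. The still stricter threshold, chosen after seeing the data, gave 40.9% with WT cover of at least 80%, 17.4% with 2 or more WT peaks, a gap share of 11.5%, H3K4me3 in 28.6% in the mutant and 31.2% in WT, and H3K27ac in 2.72% in the mutant and 3.99% in WT; it removes weak peaks by construction. The first stricter threshold, adding chromosome X, limiting the mutant list to the WT covered length (635 domains) and leaving out the 8 longest domains (also chosen after seeing the data) moved none of these values that far. Those settings kept almost the same members, with 638, 639, 635 and 630 domains, so values kept there are weak evidence of stability. The limited list lost whole mutant peaks of lowest −log10 q, while the ends of the others stayed. What equal sensitivity of the 2 libraries would give was not tested.

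No paired analysis was possible because each genotype has 1 library per mark, and for the same reason no replicate was left out. Depth per library is unknown, which limits every statement on missing WT peaks.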
